A study of Mus musculus with 12 samples.

Results

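The genes described here are 7 less familiar genes picked for lying higher in all-trans retinoic acid (atRA) while protein synthesis was blocked: Csn3, Pdgfrb, Ncmap, Tmtc1, 1700031F05Rik, Tgm2 and Snai1. Tgm2 was not higher in RARaKO cells at its chosen probe set. They were picked from the responses to atRA in these same arrays, outside the Hox genes and the genes of retinoid metabolism, so their rise is described and not tested. Every probe set annotated to 1 of these symbols was taken, which gave 13 of the 37600 probe sets on the array that are not controls, for 7 of the 16509 genes named by at least 1 probe set with a single symbol. Tgm2 has 5 of them, Pdgfrb and Tmtc1 have 2 each, and the other genes have 1 each. F9 teratocarcinoma cells, a mouse embryonal carcinoma line, were measured on 12 Affymetrix expression arrays in 4 groups of 3. The groups were RARaKO cells in atRA, RARaKO cells in vehicle, WT cells in atRA and WT cells in vehicle. RARaKO cells carry a knockout of Rara, the gene of retinoic acid receptor alpha, and all 4 groups were kept in cycloheximide at 1 µg/ml, which stops protein synthesis. After 30 min of cycloheximide the cells received atRA at 1 µM or ethanol at 0.1% for 7.5 h. The labels do not say how the knockout was made or how many clones were used, and they call the 3 replicates of a group sets 2, 3 and 4. Nothing says that the replicates were separate cultures, so the p-values describe array-to-array spread that could be technical only.

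Retinoic acid receptors sit on DNA as heterodimers with retinoid X receptors, mostly at direct repeats of a short motif, and switch nearby genes on when the ligand binds. A transcript that changes under cycloheximide does so without newly made protein, which is the usual test of a direct target. In F9 cells retinoic acid starts differentiation toward endoderm, and its best known direct targets are Hox genes, Rarb and Cyp26a1. The 7 genes have other roles. Csn3 encodes kappa-casein, the milk protein that stabilises casein micelles. Pdgfrb encodes a receptor tyrosine kinase for platelet-derived growth factor that is typical of pericytes and other mesenchymal cells. Ncmap encodes a membrane protein of noncompact myelin in Schwann cells. Tmtc1 encodes an endoplasmic reticulum enzyme that adds O-linked mannose to cadherins. Tgm2 encodes tissue transglutaminase, which cross-links proteins, and Snai1 encodes a zinc finger repressor of epithelial genes such as Cdh1. No role is given here for 1700031F05Rik.

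Values are on a scale taken as log2 and are relative to each probe set's own median over the 12 arrays, so they show differences between arrays and not levels. From the number spacing in the file, all 13 probe sets were put in the class for a median level between 4 and 8 on that scale. This was the middle of 3 recovered classes and held 59.3% of all probe sets, while 39.6% were put at 8 or above. A probe set with arrays on both sides of 8 can be put in the class below. Rara itself, read by 1 probe set, was higher in the arrays labelled RARaKO. It read 0.26, 0.05 and 0.29 in RARaKO atRA, 0.29, 0.32 and 0.30 in RARaKO vehicle, -0.26, -0.05 and -0.17 in WT atRA, and -0.55, -0.50 and -0.76 in WT vehicle. Whether the label is wrong or the probes bind transcript outside the deletion cannot be told apart here, so the arrays are called by their labels. All 10 markers of embryonal carcinoma and pluripotent cells, among them Pou5f1, Sox2 and Nanog, were in the highest level class, and none was called in either response (limma). By genotype Pou5f1 was lower in the arrays labelled RARaKO, by -0.16 ± 0.04 (adjusted p = 0.0155), and with the set as a block Lin28a (-0.19) and Zfp42 (0.26) were called as well. Of 10 measured markers of fibroblasts and pericytes 3 were in that class, as were 10 of 12 of extraembryonic endoderm, and none of these was called in any comparison made here without the block. With it Pdgfra (-0.29), Thy1 (0.25) and Afp (-0.24) were called by genotype and none in a response. By genotype the block called 6.7% of all genes higher and 8.84% lower, against 5.21% and 6.89% without it. The mean 5' minus 3' difference of 4 control transcripts, a measure of RNA integrity, was 0.001 to 0.090 in RARaKO atRA, -0.023 to 0.132 in RARaKO vehicle, -0.025 to 0.018 in WT atRA and -0.123 to -0.084 in WT vehicle. This mean thus lay lowest in WT vehicle with no overlap. There Tfrc (-0.171, -0.479 and -0.114) and Pcx (-0.245, -0.028 and -0.158) were negative in every array. Actb (0.059, -0.016 and -0.050) and Gapdh (-0.002, 0.032 and -0.016) in WT vehicle overlapped every other group. The part of this measure in the results below was not tested.

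The promoter windows are shown because the members were picked for a rise with the ligand. RefSeq windows (build GRCm38.p6) from 250 bases before to 50 bases after a start are shown for 3 of the 7 genes, with 2 starts for Ncmap. Csn3, Pdgfrb, 1700031F05Rik and Tgm2 are not shown. Capitals mark matches, on either strand, to a single retinoid receptor motif (AGGTCA, its variant AGTTCA, the form GGGTCA or the form GGTTCA), the TATA box TATAAA, the GC box GGGCGG, the E-box CACCTG or the CCAAT box.
Snai1, start, chr2:167537945-167538244, plus strand: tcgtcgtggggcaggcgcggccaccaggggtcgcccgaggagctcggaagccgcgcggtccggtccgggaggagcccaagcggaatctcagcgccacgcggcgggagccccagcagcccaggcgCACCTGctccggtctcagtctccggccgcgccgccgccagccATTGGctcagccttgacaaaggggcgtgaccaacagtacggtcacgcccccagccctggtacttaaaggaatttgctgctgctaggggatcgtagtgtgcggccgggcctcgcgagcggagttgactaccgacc
Ncmap, upstream start, chr4:135398178-135398477, minus strand: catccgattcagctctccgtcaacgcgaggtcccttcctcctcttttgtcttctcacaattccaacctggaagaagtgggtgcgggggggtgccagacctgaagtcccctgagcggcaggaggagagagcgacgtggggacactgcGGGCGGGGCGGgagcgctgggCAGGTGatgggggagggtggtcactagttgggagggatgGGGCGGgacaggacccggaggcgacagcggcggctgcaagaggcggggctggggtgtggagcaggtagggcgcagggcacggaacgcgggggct
Ncmap, downstream start, chr4:135385623-135385922, minus strand: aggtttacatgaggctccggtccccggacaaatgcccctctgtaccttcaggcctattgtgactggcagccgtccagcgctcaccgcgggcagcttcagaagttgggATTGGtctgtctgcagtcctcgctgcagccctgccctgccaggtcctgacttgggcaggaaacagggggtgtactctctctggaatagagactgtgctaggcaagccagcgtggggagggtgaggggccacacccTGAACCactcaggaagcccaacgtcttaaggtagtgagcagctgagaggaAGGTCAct
Tmtc1, start, chr6:148444303-148444602, minus strand: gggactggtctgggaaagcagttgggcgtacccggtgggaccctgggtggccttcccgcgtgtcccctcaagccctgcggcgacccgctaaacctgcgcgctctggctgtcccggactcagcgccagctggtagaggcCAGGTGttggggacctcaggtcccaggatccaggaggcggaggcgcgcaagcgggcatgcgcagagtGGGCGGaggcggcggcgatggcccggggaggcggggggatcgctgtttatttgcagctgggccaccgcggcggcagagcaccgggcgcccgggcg

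The CACCTG motif, the core of the sites that Snail-type repressors recognise, stood in 3 of these 4 windows, those of Snai1, Tmtc1 and the upstream start of Ncmap, and in 20.2% of all 32851 windows in the table. In the Snai1 window its first base lay at -126 from the start. GGGCGG occurred 3 times at the upstream Ncmap start, where a pair of matches overlaps, and once in the Tmtc1 window, and it stood in 35.7% of all windows. Single retinoid receptor motifs were found only at the downstream Ncmap start, which held 2, against 43.7% of all windows with at least 1. None of the 4 windows held the direct repeats DR1, DR2 or DR5 built from that motif, which 0.222%, 0.268% and 0.0974% of all windows hold. A match is only a match of letters, and these windows do not cover sites farther away. The windows of Snai1, Tmtc1 and the upstream Ncmap start were rich in G and C, at 70.0%, 72.3% and 67.7%, against a median of 52.7% over all windows.

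In both genotypes most of the 13 probe sets were higher in atRA than in vehicle. All 3 atRA arrays lay above all 3 vehicle arrays for 9 of 13 probe sets in RARaKO cells, where 7.31% of all probe sets did so, and for 12 of 13 in WT cells, where 6.22% did. All 6 atRA arrays lay above all 6 vehicle arrays for 8 of 13, against 0.872% of all probe sets. The members were chosen for this, so nothing is read from these shares. The median difference over the 13 was 0.52 in RARaKO cells and 0.51 in WT cells on the log2 scale, against 0.00 and -0.01 over all 37600 probe sets. The members fell into a strong class, Csn3, Tmtc1, Ncmap and 1 probe set of Pdgfrb, and a mild class with Snai1, the other Pdgfrb probe set and Tgm2. 1700031F05Rik lay with the strong class in RARaKO cells (1.06) and near the mild class in WT cells (0.62). In bulk RNA a change in fewer cells and a change in RNA per cell cannot be told apart.

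**Figure D1:**
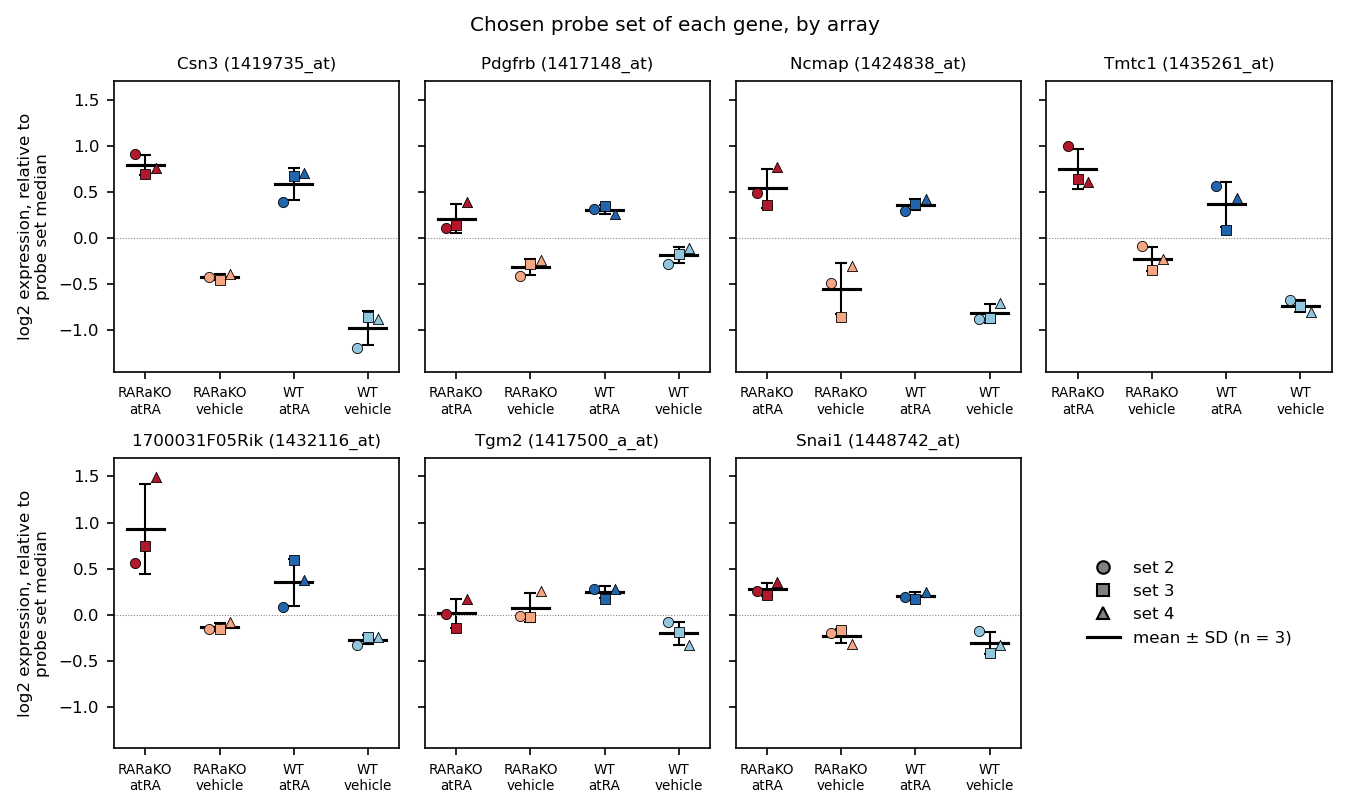
Log2 expression relative to the probe set's median (vertical axis) in each of the 12 arrays, for the chosen probe set of each gene, by group; points are arrays with the marker giving the set, and bars show the mean and SD of 3 arrays. Csn3, Ncmap, Tmtc1, Pdgfrb, 1700031F05Rik and Snai1 have every atRA array above every vehicle array, while the Tgm2 groups overlap.

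Csn3 showed one of the strongest responses of the 7 genes. In WT cells it was of about the same size as Tmtc1 at 1439855_at (1.56 ± 0.09) and larger than Tmtc1 at its chosen probe set, 1435261_at (1.11 ± 0.13). It read 0.91, 0.70 and 0.76 in RARaKO atRA, against -0.42, -0.45 and -0.39 in RARaKO vehicle. In WT atRA it read 0.39, 0.67 and 0.71, against -1.19, -0.86 and -0.88 in WT vehicle. No atRA array overlapped a vehicle array, and the WT vehicle arrays lay below the RARaKO vehicle arrays. The differences between atRA and vehicle were 1.21 ± 0.10 in RARaKO cells and 1.57 ± 0.10 in WT cells (log2, SE of the limma fit, n = 3 per group), which are 2.32-fold and 2.96-fold if the scale is log2. Among the 37600 probe sets these were the fifth highest increase in RARaKO cells and the third highest in WT cells. Within sets 2, 3 and 4 the difference was 1.33, 1.16 and 1.15 in RARaKO cells and 1.58, 1.53 and 1.59 in WT cells.

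Tmtc1 was read by 2 probe sets that ran closely together over the arrays (Pearson r = 0.977 over 12 arrays, a description of arrays that share the treatment). The chosen probe set, 1435261_at, read 1.00, 0.64 and 0.61 in RARaKO atRA, against -0.09, -0.35 and -0.23 in RARaKO vehicle. The WT atRA arrays read 0.57, 0.09 and 0.44, against -0.67, -0.74 and -0.80 in WT vehicle. The second, 1439855_at, read 0.84, 0.85 and 0.82 in RARaKO atRA, against -0.41, -0.57 and -0.24 in RARaKO vehicle. In WT atRA it read 0.48, 0.24 and 0.49, against -1.17, -1.07 and -1.23 in WT vehicle. Neither probe set had any overlap between neighbouring groups: both ran from RARaKO atRA through WT atRA and RARaKO vehicle down to WT vehicle. The atRA minus vehicle differences were 0.98 ± 0.13 in RARaKO cells and 1.11 ± 0.13 in WT cells at the first, and 1.24 ± 0.09 and 1.56 ± 0.09 at the second.

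Ncmap, the myelin gene, read 0.49, 0.36 and 0.77 in RARaKO atRA, against -0.49, -0.85 and -0.30 in RARaKO vehicle. The WT atRA arrays read 0.30, 0.37 and 0.42, against -0.88, -0.87 and -0.70 in WT vehicle. The atRA arrays of both genotypes overlapped each other, the vehicle arrays did so too, and the treatments were apart. Its log2 difference was 1.09 ± 0.13 in RARaKO cells and 1.18 ± 0.13 in WT cells.

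The 2 probe sets of Pdgfrb gave the same direction with unlike size. At 1417148_at the arrays read 0.11, 0.14 and 0.39 in RARaKO atRA, against -0.41, -0.28 and -0.24 in RARaKO vehicle. In WT atRA they read 0.32, 0.35 and 0.26, against -0.28, -0.17 and -0.11 in WT vehicle. At 1436970_a_at they read 0.28, 0.50 and 0.93 in RARaKO atRA, against -0.67, -0.75 and -0.28 in RARaKO vehicle, and 0.73, 0.64 and 1.07 in WT atRA, against -0.56, -0.79 and -0.59 in WT vehicle. Treatments did not overlap at either probe set, while genotypes overlapped in both treatments. The atRA minus vehicle difference was 0.52 ± 0.08 in RARaKO cells and 0.50 ± 0.08 in WT cells at the first probe set, and 1.13 ± 0.17 and 1.46 ± 0.17 at the second. The probe sets had r = 0.933 over the 12 arrays, so they differ in the size of the change more than in its pattern.

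1700031F05Rik, on the X chromosome, was the most variable member. It read 0.56, 0.74 and 1.49 in RARaKO atRA, against -0.16, -0.15 and -0.08 in RARaKO vehicle. In WT atRA it read 0.08, 0.59 and 0.38, against -0.33, -0.24 and -0.24 in WT vehicle. The set 4 array of RARaKO atRA stood above the other RARaKO atRA arrays, and treatments did not overlap. In vehicle the RARaKO arrays lay just above the WT arrays. Its difference was 1.06 ± 0.19 in RARaKO cells and 0.62 ± 0.19 in WT cells, and the first was 0.785 without that array. Unlike the strong members it was thus higher by more in the RARaKO cells, by 0.44 ± 0.27 (95% interval -0.14 to 1.02), and by 0.161 without that array.

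Snai1 showed a mild response of closely similar size in both genotypes. It read 0.26, 0.21 and 0.35 in RARaKO atRA, against -0.20, -0.17 and -0.32 in RARaKO vehicle. The WT atRA arrays read 0.19, 0.17 and 0.25, against -0.18, -0.42 and -0.33 in WT vehicle. Treatments were apart and genotypes overlapped. The log2 difference was 0.50 ± 0.07 in RARaKO cells and 0.51 ± 0.07 in WT cells, with a 95% interval of -0.23 to 0.22 for the difference between the responses.

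Tgm2 stood apart from the other 6 genes. Its chosen probe set, 1417500_a_at, read 0.01, -0.14 and 0.17 in RARaKO atRA, against -0.01, -0.02 and 0.26 in RARaKO vehicle, which overlap. In WT atRA it read 0.28, 0.17 and 0.28, against -0.08, -0.19 and -0.33 in WT vehicle, with no overlap. The log2 difference was -0.06 ± 0.10 in RARaKO cells and 0.44 ± 0.10 in WT cells. Over all 5 probe sets the atRA minus vehicle difference ran from -0.06 to 0.45 in RARaKO cells and from 0.19 to 0.51 in WT cells. In WT cells the treatments overlapped only at 1426004_a_at, while in RARaKO cells they were apart only there. The Tgm2 probe sets ran together less than those of the other genes, with r from 0.036 to 0.927 over the 12 arrays. Of the 5, 3 are of the _x_at type, whose probes may also bind other transcripts, and the response in RARaKO cells differed between probe sets, those of the _a_at type included (-0.06 and 0.19).

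**Figure D2:**
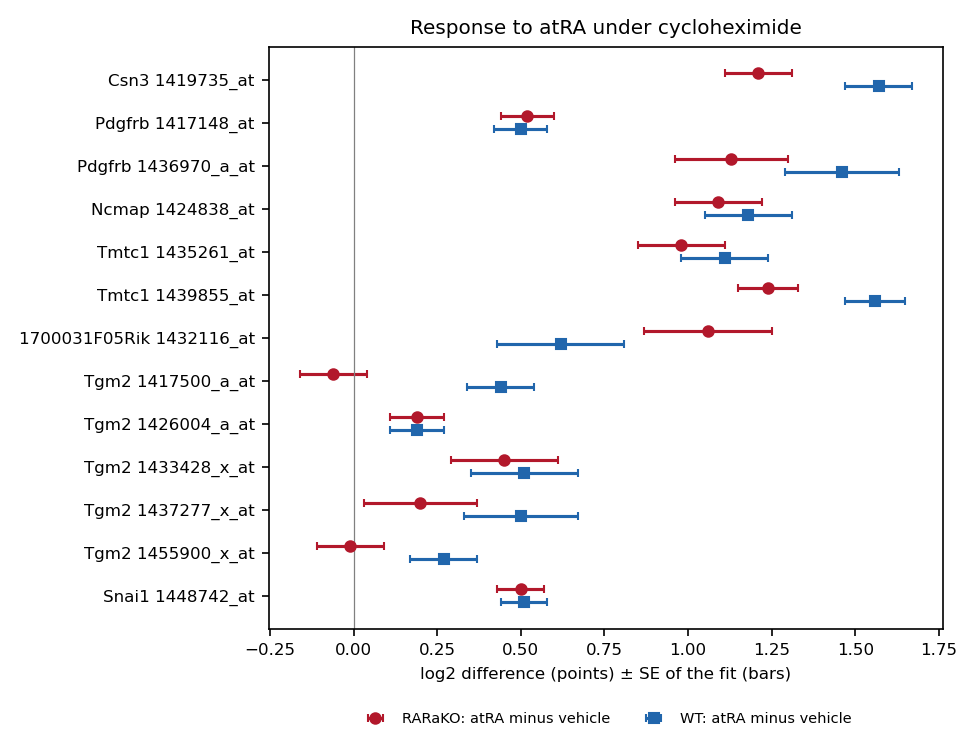
Log2 difference between atRA and vehicle (horizontal axis) for the 13 probe sets, in RARaKO cells (circles) and in WT cells (squares), with the standard error of the fit as bars. Values run from -0.06 to 1.24 in RARaKO cells and from 0.19 to 1.57 in WT cells, and Tgm2 1417500_a_at is the widest apart in the direction of a higher WT response.

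**Figure D3:**
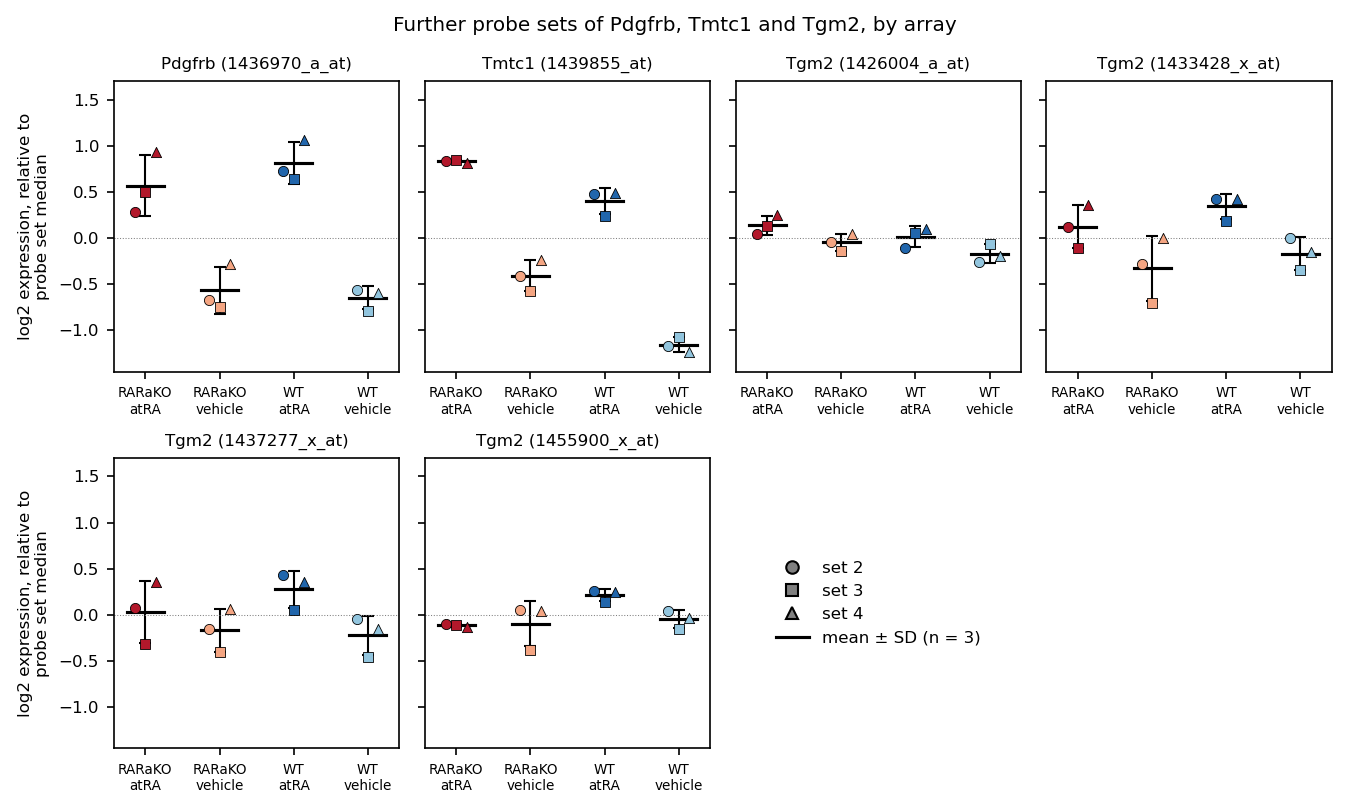
Log2 expression relative to the probe set's median (vertical axis) in each array for the probe sets not chosen to stand for their gene, with markers for the sets and the mean and SD of 3 arrays. The Pdgfrb and Tmtc1 probe sets repeat the pattern of the chosen ones, while those of Tgm2 spread from a difference of -0.01 to 0.45 in RARaKO cells.

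The difference between the responses, RARaKO minus WT, had a median of -0.13 over the 13 probe sets, against 0.01 over all probe sets, and ran from -0.50 ± 0.14 (Tgm2, 1417500_a_at) to 0.44 ± 0.27 (1700031F05Rik). For Csn3 it was -0.36 ± 0.15 and for the Tmtc1 probe sets -0.13 ± 0.18 and -0.32 ± 0.13. Both responses were used to choose the members, so no test is given for them, and of all 37600 probe sets 0% were called for this difference (limma, smallest adjusted p = 1). An unadjusted p under 0.05 was found for 1168, which is less than the share of 0.05 that no difference at all would give.

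The difference between genotypes averaged over both treatments was not what the members were picked for. Its estimate is uncorrelated with both responses in this balanced design. Its p-values use the same spread per probe set as the responses, and the members were chosen with earlier results of these data known. Tmtc1 and Csn3 were higher in the arrays labelled RARaKO. Tmtc1 was higher by 0.45 ± 0.09 at 1435261_at (limma, adjusted p = 0.00682) and by 0.59 ± 0.06 at 1439855_at (adjusted p = 8.54e-05). Csn3 was higher by 0.38 ± 0.07 (adjusted p = 0.00533). These were 3 of the 13 probe sets called higher and none lower, where 5.28% of all probe sets were called higher, 5.61% lower and 10.9% in either direction. Within sets 2, 3 and 4 the difference was 0.65, 0.22 and 0.27 for Csn3, 0.51, 0.47 and 0.37 for Tmtc1 at 1435261_at and 0.56, 0.55 and 0.66 at 1439855_at. Without set 2 the difference for Csn3 was 0.249 (adjusted p = 0.0347). The call of Csn3 was lost with quantile normalization between arrays (0.185, adjusted p = 0.207), and that of Tmtc1 at 1435261_at was lost without set 4 (0.488, adjusted p = 0.0629). The mean 5' minus 3' control difference described above was also higher in the arrays labelled RARaKO, most of all against WT vehicle. At Actb and at Gapdh the genotypes overlapped, and the part of this measure here was not tested.

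All 3 RARaKO arrays lay above all 3 WT arrays at 5 of 13 probe sets in vehicle and at 2 of 13 in atRA, where 9.69% and 9.9% of all probe sets did. For Csn3 and Tmtc1 the genotypes lay farther apart in vehicle than in atRA. In vehicle Csn3 was 0.56 ± 0.10 higher in RARaKO than in WT arrays, and in atRA 0.20 ± 0.10. Tmtc1 was 0.51 ± 0.13 and 0.75 ± 0.09 higher in vehicle at its 2 probe sets, and 0.39 ± 0.13 and 0.43 ± 0.09 higher in atRA. These values share arrays with the responses and are given without a test. Without the ligand, both transcripts lay higher in RARaKO than in WT arrays and below every atRA array. For the other 5 genes the average genotype difference was not called without a block for the set: it was 0.36 ± 0.13 for 1700031F05Rik (adjusted p = 0.111; 0.218 without the set 4 array of RARaKO atRA), 0.22 ± 0.09 for Ncmap (0.156), 0.08 ± 0.05 for Snai1 (0.428) and -0.11 ± 0.06 and -0.08 ± 0.12 at the probe sets of Pdgfrb (0.295 and 0.742). Over the 5 probe sets of Tgm2 it ran from -0.19 to 0.12, with adjusted p from 0.115 to 0.902. At the chosen Tgm2 probe set, 1417500_a_at, the average of 0.02 joined values of opposite sign. There RARaKO minus WT was 0.27 ± 0.10 in vehicle, with no overlap, and -0.23 ± 0.10 in atRA, both given without a test. At the other Tgm2 probe sets it ran from -0.16 to 0.13 in vehicle and from -0.33 to 0.12 in atRA. With the set as a block the calls were kept for Csn3 (adjusted p = 0.00401) and Tmtc1 (6.58e-04 and 1.19e-04), and Ncmap (0.22, adjusted p = 0.0413) and Tgm2 at 1455900_x_at (-0.19, adjusted p = 0.0482) were called too. The block raised the probe sets called by genotype from 4093 to 5575, and 6.7% of all genes were then higher and 8.84% lower. Quantile normalization gave 0.071 for Ncmap (adjusted p = 0.736). The 95% interval was -0.04 to 0.19 for Snai1 and 0.07 to 0.65 for 1700031F05Rik.

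**Figure D4:**
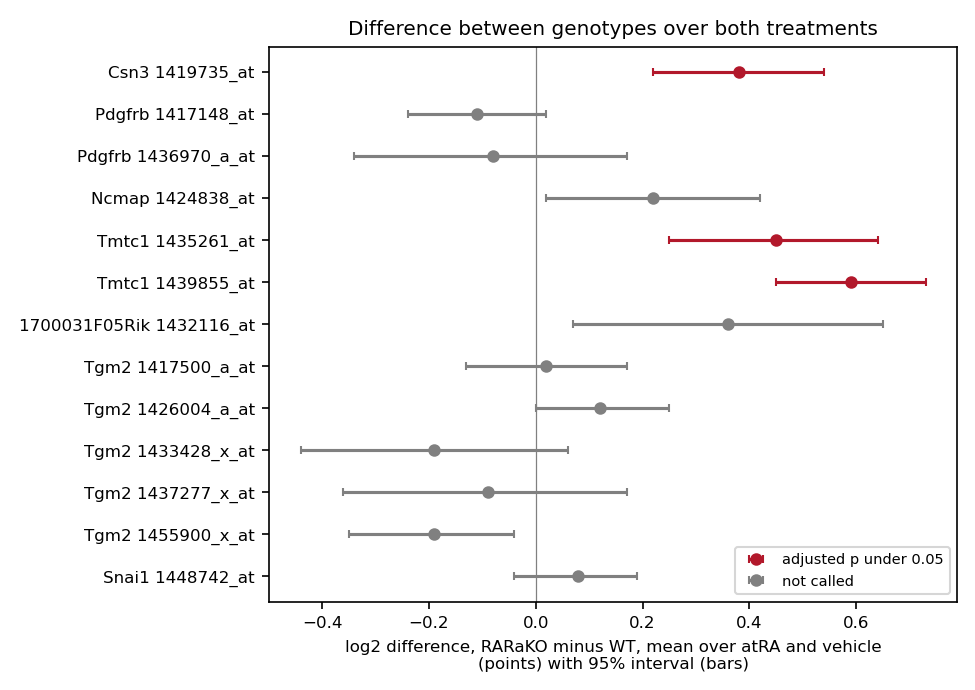
Log2 difference between RARaKO and WT arrays averaged over atRA and vehicle (horizontal axis) for the 13 probe sets, with 95% intervals of the fit as bars; red points have an adjusted p under 0.05. The called points are Csn3 at 0.38 and the Tmtc1 probe sets at 0.45 and 0.59.

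Known retinoic acid targets give the scale of the responses. Of 23 measured known targets 11 rose in RARaKO cells and 15 in WT cells, and their median difference was 0.68 and 0.93. None fell. Over the 16509 genes 0.339% rose in RARaKO cells and 0.684% in WT cells, and over all probe sets 0.215% and 0.484% rose and 0.0479% and 0.0851% fell. With the set as a block 13 and 14 of the 23 rose, and the probe sets called in either direction were 167 in RARaKO cells and 339 in WT cells, against 99 and 214 without it. Rarb, a receptor gene that is its own target, rose by 0.95 in RARaKO cells (adjusted p = 4.05e-04) and by 1.35 in WT cells (1.33e-05). By genotype 5 known targets were higher in the arrays labelled RARaKO, where 5.21% of all genes were, and 5 were lower, where 6.89% were. Among the higher were Rara itself (0.63, adjusted p = 4.55e-05), whose reading is in doubt, Stra8 (0.51, adjusted p = 3.42e-04) and Rarb (0.34, adjusted p = 0.00331), and among the lower were Hoxb5 (-0.97, adjusted p = 2.23e-05) and Hoxb1 (-0.84, adjusted p = 3.46e-05). With the set as a block 5 were higher and 7 lower, with Hoxa5 (-0.47, adjusted p = 5.55e-04) and Hoxa2 (-0.31, 0.0381) called as well. By genotype 6.7% of all genes were then higher and 8.84% lower.

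Relatives of the 7 genes by family or function were read in the same fit. So few genes are called in the responses over the whole array that a count of 0 in a list this short says nothing particular about it. Of 7 other casein and milk genes measured, among them Csn2, Csn1s1 and the milk regulator genes Stat5a and Stat5b, none was called in either response, with medians of 0.01 in RARaKO cells and 0.03 in WT cells (limma). Of 10 other PDGF ligands and related receptors 1 rose in each response, Kit, the receptor for stem cell factor. Over all genes 0.339% rose in RARaKO cells and 0.684% in WT cells. Kit rose by 0.53 ± 0.09 in RARaKO cells and 0.75 ± 0.09 in WT cells. The sister receptor gene Pdgfra differed by -0.05 ± 0.24 and -0.07 ± 0.24, and the ligand gene Pdgfb by 0.08 ± 0.10 and -0.06 ± 0.10. In neither response was any of the 6 other transglutaminase family genes called, nor any of the 6 other O-mannosylation genes. Tmtc2 differed by -0.16 ± 0.14 in RARaKO cells and -0.13 ± 0.14 in WT cells. By genotype 1 of the 6 O-mannosylation genes was higher, Pomgnt1 (0.48 ± 0.05, adjusted p = 5.46e-05). So was 1 of the 10 PDGF ligands and related receptors, Kit (0.32 ± 0.06, adjusted p = 0.00668). Over all genes 5.21% were higher by genotype and 6.89% lower.

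None of the 19 other genes of the Snail family and of epithelial-mesenchymal transition was called in either response. All arrays were in cycloheximide, so the higher Snai1 transcript could not act through newly made SNAI1 protein. The values below therefore say nothing about what SNAI1 does to these genes. Cdh1, the E-cadherin gene that SNAI1 represses, differed by 0.05 ± 0.08 in RARaKO cells and 0.13 ± 0.08 in WT cells, and Snai2 by -0.01 ± 0.10 and 0.08 ± 0.10. Vim, a mesenchymal filament gene, differed by -0.36 ± 0.10 and -0.37 ± 0.10 without being called (adjusted p = 0.297 and 0.233). By genotype, 2 of the 19 were called, both lower, where 5.21% of all genes were higher and 6.89% lower. Cdh2, the N-cadherin gene, was lower in the arrays labelled RARaKO by -0.55 ± 0.07 (adjusted p = 4.43e-04), as was Twist1 (-0.33 ± 0.07, adjusted p = 0.0116). Of the 9 other myelin genes none was called in either response without a block for the set. The values came nearest for Pmp22, a compact myelin gene, at 0.33 ± 0.14 in RARaKO cells and 0.62 ± 0.14 in WT cells (adjusted p = 0.563 and 0.0972), and for Gjb1, at 0.40 ± 0.10 and 0.45 ± 0.10 (0.198 and 0.0771). With the set as a block Pmp22 rose in WT cells (adjusted p = 0.0127) and Gjb1, a gap junction gene of Schwann cells, rose in RARaKO and in WT cells (adjusted p = 0.0486 and 0.0148). By genotype 4 of the 9 were called, against the same shares of all genes: Mobp (1.40 ± 0.13), Mal (0.42 ± 0.11) and Gjb1 (0.26 ± 0.07) were higher and Cnp (-0.42 ± 0.09) was lower in the arrays labelled RARaKO.

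For each member the 5 measured genes on either side were read in RefSeq order, 70 genes in all. In each response 1 of the 70 rose and none fell, where 0.339% and 0.684% of all genes rose in RARaKO and in WT cells. That gene was Cdx1, a homeobox gene of posterior patterning and itself among the known targets, which is the nearest measured gene beside Pdgfrb on chromosome 18. Cdx1 rose by 1.45 ± 0.13 in RARaKO cells (limma, adjusted p = 4.05e-04) and by 1.74 ± 0.13 in WT cells (adjusted p = 5.18e-05). Csf1r, on the other side of Pdgfrb and a receptor gene of the same class, differed by 0.01 ± 0.17 and -0.09 ± 0.17. The casein genes beside Csn3 on chromosome 5, Csn1s2a, Csn2 and Csn1s1, differed by -0.07 to 0.01 in RARaKO cells and by -0.04 to 0.08 in WT cells. Around the other 6 genes the neighbours ran from -0.31 to 0.25 in RARaKO cells and from -0.40 to 0.12 in WT cells. By average genotype difference 3 of the 70 were higher and 3 lower, close to the 5.21% and 6.89% of all genes. With the set as a block 4 were higher, Csf1r (0.22, adjusted p = 0.0435) among them, and 3 lower, where 6.7% and 8.84% of all genes were.

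**Figure D5:**
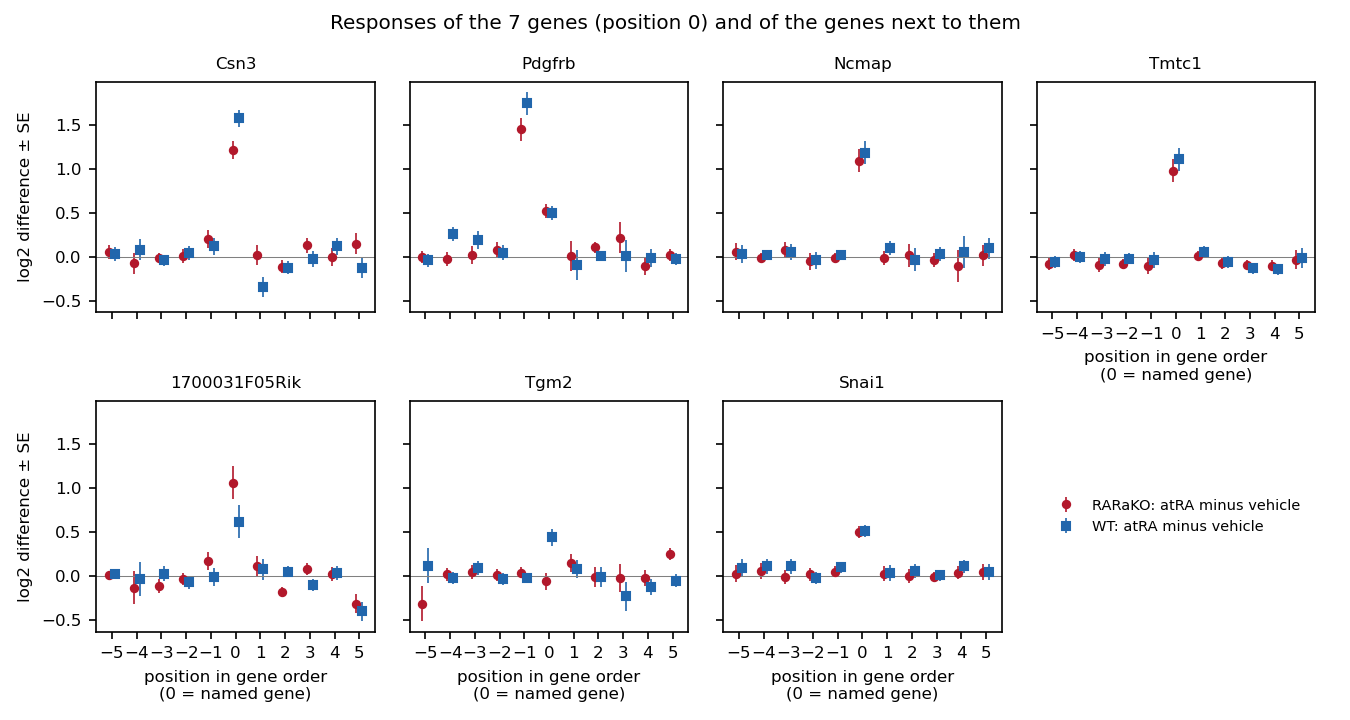
Log2 difference between atRA and vehicle with its standard error (vertical axis), in RARaKO cells (circles) and in WT cells (squares), for each of the 7 genes at position 0 and for the 5 measured genes on either side in gene order (horizontal axis). Cdx1, at position -1 of Pdgfrb, is the neighbour with the widest response, at 1.45 and 1.74.

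The genes whose values ran most like each member over the 12 arrays were taken from the chosen probe sets of 16509 genes. All arrays share the treatment, so these correlations mostly describe it. Csn3 was nearest to Cidea, a lipid droplet protein gene (r = 0.992), then to Rarb (0.985) and H2-Bl (0.983). Ncmap was nearest to Spns3 (0.982), Acp5, an acid phosphatase gene (0.974), and Rarb (0.973). Tmtc1 was nearest to Aqp3, a water and glycerol channel gene (0.986), Kit (0.984) and Abl1 (0.977). For Snai1 the nearest were Vsir (0.963), Cyp26a1, the enzyme gene of retinoic acid breakdown (0.961), and Dock6 (0.958). For Pdgfrb they were Ltbp3, a binding protein gene of latent TGF-beta (0.954), Rapgef3 (0.953) and Iqgap3 (0.951). 1700031F05Rik was nearest to Tmem191c (0.945), Syt5 (0.927) and Cyp2d13 (0.912). Tgm2 had no gene with r over 0.9, and its nearest were Pcsk1n (0.845), 4930528A17Rik (0.833) and Isoc2b (0.829). Csn3 had 70 genes over 0.9, Ncmap 69, Tmtc1 55, Snai1 44, Pdgfrb 28 and 1700031F05Rik 10. Among the members themselves the pair most alike was Csn3 and Ncmap (r = 0.961), and the pair least alike was 1700031F05Rik and Tgm2 (0.363).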

How the data were processed

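The 12 arrays were used as deposited. Per the submitters' processing notes the authors' tool was GCRMA, with no version given, and the deposited values were taken as log2, the scale GCRMA gives; no label states the log base. Every probe set's median over the 12 arrays was 0 within 7.02e-07, so the deposited values had been centred, a step no label records. A level class was recovered from the spacing of single-precision numbers (at least 10 of 12 values on the grid), and it was right for 98.2% of 20000 simulated probe sets. These were simulated with a smaller spread over the arrays than the strong members had, so that share need not hold for the members. Depth is not defined for arrays, and their number limits the precision.

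Of 37661 probe sets 61 controls were left out. A symbol from the probe annotation was used for the 30488 probe sets with a single symbol (784 had several and 6328 none). A mean per group was fitted over the 12 arrays together in limma 3.58.1 (R 4.3.3), with Benjamini-Hochberg adjustment over 37600 probe sets and a call at an adjusted p under 0.05. Errors after ± are standard errors of that fit. Tested on simulated data, the fit recovered 92% of changes of 0.5 and 97% of changes of 1 in the averaged genotype difference over 37600 probe sets, with 11 false calls. The simulated noise was independent between arrays, unlike that of same-set arrays here, and the responses and their difference were not simulated. Members and gene lists were chosen with earlier results of these data known. A gene with several probe sets was stood for by that of the highest level class, then the least ambiguous type, then the lowest number. Genes beside the members were named by 4 rules: the 3 with the highest r, those next in gene order or, among 5 on each side, called in a response, list members called in a comparison, and relatives of a member. Of 16509 genes 16382 were found in the RefSeq table. The set number pairs the arrays within each response: deviations from the group means of same-set arrays correlated at 0.117 to 0.497 between RARaKO atRA and vehicle, and at 0.101 to 0.392 between WT atRA and vehicle. Between genotypes this held in vehicle (0.116 to 0.238) and for 2 of 3 pairs in atRA (0.038 to 0.287). The block was therefore run beside the fit without it. Its values or counts are given where a call changed, except for the responses of the members, which are described and not tested. Alternatives were a set block, each array and each set left out, array weights, 2 normalizations, a level filter, robust variances and the mean of a gene's probe sets. No fold or difference sets one probe set's level against another's.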

Additional observations from a re-analysis of the deposited data

How the results depend on the processing

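Of the calls on the average genotype difference, that of Tmtc1 at 1439855_at was kept in all 20 alternatives (0.44 to 0.63), that at 1435261_at in 20 of 21 (0.30 to 0.52) and that of Csn3 in 19 of 20 (0.18 to 0.46), with the losses given above; the cause was not tested. Ncmap (0.07 to 0.33 over the alternatives) was called without the set 3 array of RARaKO vehicle (0.297, adjusted p = 0.0391), and 1700031F05Rik without the set 2 array of RARaKO atRA (0.450, 0.0384) and with array weights (0.428, 0.0316). With the set as a block (replicate block) Ncmap (0.221, adjusted p = 0.0413) and Tgm2 at 1455900_x_at (-0.191, 0.0482) were called too, and no other call on a member's genotype difference changed. The counts of called probe sets with the block were 167 in RARaKO cells, 339 in WT cells and 5575 by genotype, against 99, 214 and 4093 without it. Array weights gave 382 in WT cells, and the fit on the 6 RARaKO arrays alone gave 14. Without 1 array the counts ran from 39 to 88 in RARaKO cells, from 107 to 226 in WT cells and from 2760 to 3810 by genotype, and without set 2, 3 or 4 they were 10, 2 and 17 in RARaKO cells, 61, 40 and 47 in WT cells, and 1942, 1602 and 1579 by genotype. When each gene's probe sets were averaged, the response of Tgm2 in RARaKO cells was 0.153 and the difference between responses of Pdgfrb was -0.150, both of opposite sign to the chosen probe set. That difference for Pdgfrb was also negative without set 4 (-0.095), and that for Snai1 was positive without set 3 (0.0984). A filter at level class 8 left no member.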
